A study of Mus musculus with 12 samples.

Results

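Isg15, Isg20, Rsad2, Cmpk2, Usp18, Ifi44, Ifi35, Xaf1 and Ifi27l2a are 9 interferon-stimulated genes whose products act directly against viruses or tune that defence, and they were taken by symbol from a table of 38739 symbols. All 9 were listed, none was at 0 in any of its 12 libraries (0 of 108 values), and all 9 were among the 11887 genes that passed the filter on low values. The libraries were RNA-seq of bone marrow-derived macrophages (BMDMs) from WT mice and from mice lacking cGAS in the whole body (cGAS-/-), left untreated (UT, media control) or given LPS, a cell wall component of Gram-negative bacteria, with 3 libraries for each genotype and treatment. The mice were male, 8 weeks old and on a C57BL/6J background according to the methods, and the labels name no other allele or agent in any group. Per the methods, the WT mice were bought from a supplier and the cGAS-/- mice were given by another laboratory. Genotype and source of the mice therefore cannot be told apart in the comparisons of genotypes. The sample labels give LPS from E. coli at 100 ng/mL for 1 h, whereas the methods give 150 ng/mL for 24 h, and which of these holds for the libraries could not be settled. The label of the extraction step names neutrophils in place of macrophages. The study calls the 3 libraries of a group technical replicates, so the p-values below measure the spread between libraries, which need not be that between mice.

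Interferon-stimulated genes have a low resting level in many cells, which a constant small output of type I interferon maintains, and they rise steeply when a pathogen sensor is engaged. LPS engages TLR4, which through TRIF, TBK1 and IRF3 switches on Ifnb1, and the secreted interferon acts back through its receptor on a complex of transcription factors that binds the interferon-stimulated response element (ISRE) in promoters. cGAS is a sensor of DNA in the cytosol that makes the messenger cGAMP and acts through STING on the same kinase and IRF3. The comparison of genotypes in UT cells therefore asks about the resting level of the 9 genes, and the comparison with LPS about the level reached after a signal that does not need cGAS to begin.

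The targeted gene, Cgas (chromosome 9, 78337802 to 78350535 of GRCm39), lay between 1.19 and 3.25 TPM (transcript abundance scaled by length and library) in the 6 WT libraries and between 0.0703 and 0.291 TPM in the 6 cGAS-/- libraries. Of 9 macrophage markers, 7 are listed, and their summed level lay between 16919 and 34259 TPM over all libraries, whereas the summed level of 6 T and NK cell markers was at most 0.803 TPM and that of 5 dendritic cell markers at most 2.23 TPM. The values of a library summed to between 447189 and 503156 in 11 libraries and to 709802 in WT LPS replicate 3, where protein-coding genes held 18.5% of the total, against 54.4% and 49.9% in the other WT LPS libraries and 39.7% to 46.8% in the remaining 9. The rises of the 9 genes with LPS in WT and the differences between genotypes are therefore also given without that library. How many reads stand behind a value is unknown, so no counting error can be attached to it.

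In GRCm39 the genes lie on 6 chromosomes. Isg15 lies on chromosome 4 (156283883 to 156285303, minus strand), Isg20 on chromosome 7 (78562598 to 78570153, plus strand), Usp18 on chromosome 6 (121222848 to 121247877, plus strand) and Ifi44 on chromosome 3 (151436559 to 151455625, minus strand). Xaf1 (72192397 to 72204559, plus strand) and Ifi35 (101339221 to 101352693, plus strand) share chromosome 11 at a distance of 29135 kb. Rsad2 (26492745 to 26506451, minus strand) and Cmpk2 (26519203 to 26529836, plus strand) are neighbours on chromosome 12, facing away from each other across 12751 bases, and Ifi27l2a (103399975 to 103409950, minus strand) lies far from them on that chromosome. Ifi27l2a overlaps Ifi27 on the opposite strand by 163 exonic bases and Ifi35 overlaps Vat1 by 620, and whether the authors' quantification used strand is not given in the sources used here. Of the Isg15 transcript, 61.6% matches Gm9706 at 95.2% identity, and 49.8% of the Ifi27l2a transcript matches Ifi27l2b at 90.7% identity, so reads could have been split between such copies.

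The 250 bases before the start of each gene's canonical transcript were searched on both strands for the ISRE core (GAAA, 2 bases of any kind and GAAA again), for the GAS element TTCNNNGAA and for an NF-kB site. The ISRE core occurred before 3 of the 9 genes, Isg15, Rsad2 and Usp18, and before 3.32% of 21751 protein-coding genes. The stretches that hold it are shown because they are the letters that the interferon-activated complex is known to read, with the cores in capitals (a core on the other strand reads as TTTC, 2 bases and TTTC), and 3 overlapping cores stand side by side in Isg15.
Isg15, chr4:156285312-156285373, minus strand: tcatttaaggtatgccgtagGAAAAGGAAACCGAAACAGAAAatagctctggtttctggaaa
Usp18, chr6:121222762-121222835, plus strand: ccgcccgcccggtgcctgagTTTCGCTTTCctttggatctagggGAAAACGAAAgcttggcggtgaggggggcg
Rsad2, chr12:26506542-26506591, minus strand: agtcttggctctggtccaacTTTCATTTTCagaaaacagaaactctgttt
The cores of Isg15 end 29 bases before the start and begin at 50, those of Usp18 lie 75 to 66 and 51 to 42 bases before it, and that of Rsad2 lies 120 to 111 bases before it. The GAS letters were in none of the 9 windows (7.69% of all windows), and an NF-kB site was in that of Isg20 alone (7.62% of all windows). No match says only that these letters are not in this window.

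**Figure D1:**
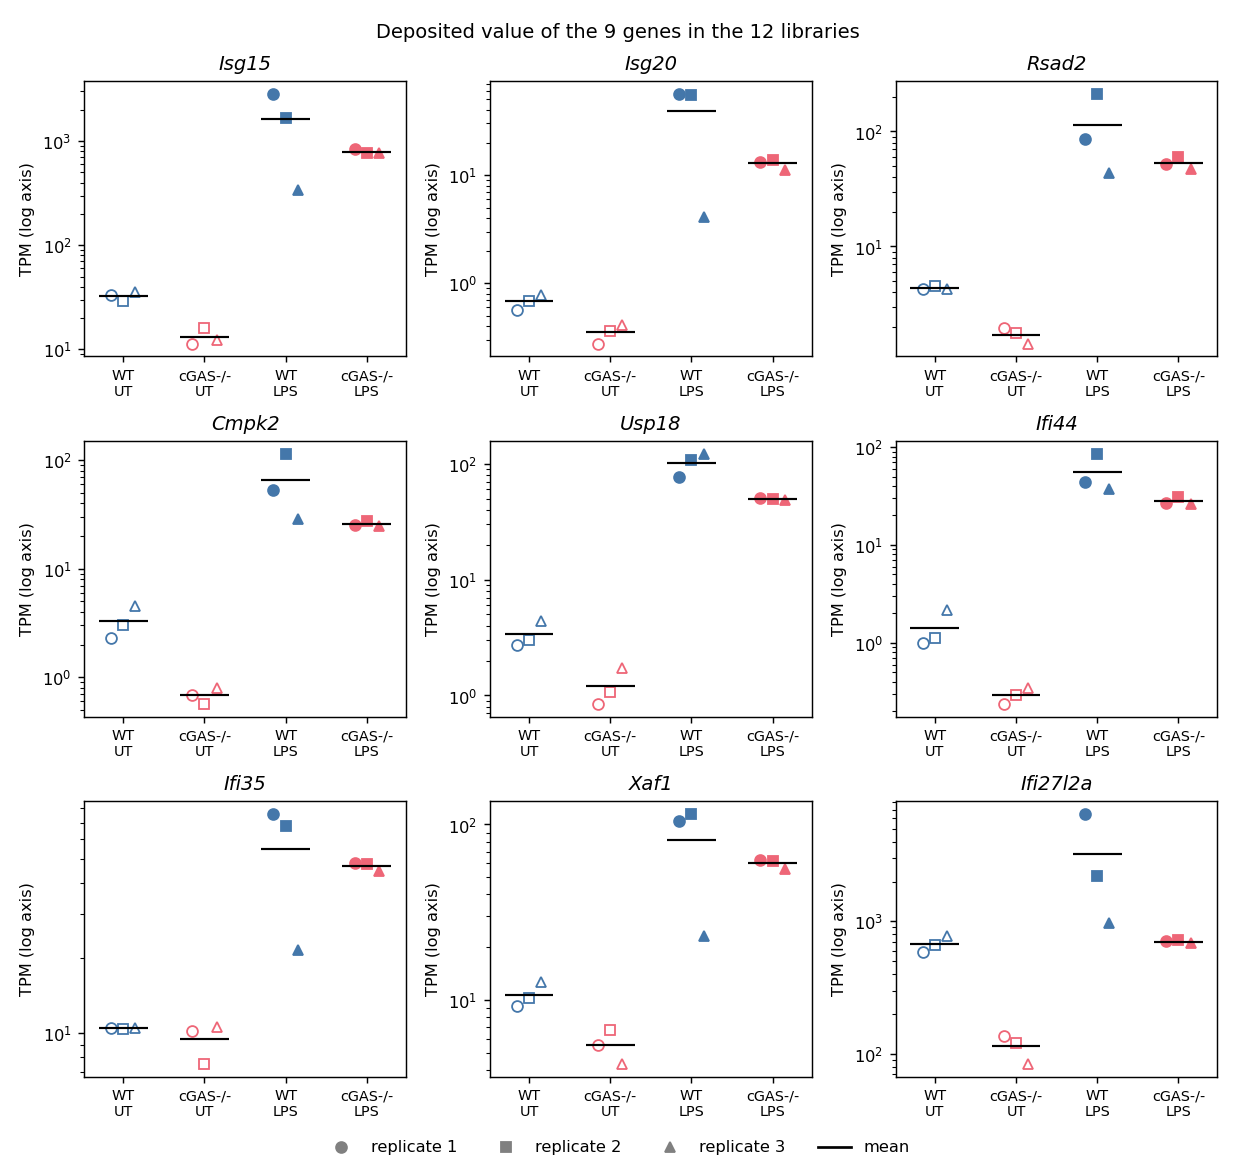
Deposited value in TPM (log axis, a scale of its own in each panel) of the 9 genes in the 12 libraries, with open symbols for UT and filled ones for LPS, blue for WT and red for cGAS-/-, a symbol shape for each replicate number and a line at the mean of 3 libraries. With LPS all values of a genotype lie above its UT values, and the WT LPS libraries spread widely, with replicate 3 (triangle) lowest for 8 genes and highest for Usp18.

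Isg15 encodes a ubiquitin-like protein that is attached to other proteins and is also secreted. In UT cells its level was 33.5, 29.3 and 35.3 TPM in WT and 11.3, 16.0 and 12.2 TPM in cGAS-/- libraries. With LPS it was 2866, 1663 and 341 TPM in WT and 832, 777 and 766 TPM in cGAS-/- libraries. The UT groups did not overlap, whereas with LPS the WT libraries lay on either side of the tightly grouped cGAS-/- ones. LPS raised Isg15 by 5.13 on the log2 scale in WT (standard error 0.59, limma adjusted p = 0.000147) and by 5.82 in cGAS-/- cells (standard error 0.59, limma adjusted p = 6.66e-05), while leaving replicate 3 out of WT LPS made the rise in WT 6.02, where a log2 fold change is the difference of mean log2(TPM + 1) and understates the change of a gene with a low level.

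Usp18 encodes the protease that removes ISG15 from its targets and also restrains signalling at the type I interferon receptor. Its level was 2.73, 2.99 and 4.43 TPM in UT WT and 0.844, 1.06 and 1.74 TPM in UT cGAS-/- libraries. With LPS it reached 76.2, 108 and 122 TPM in WT and 50.9, 49.7 and 49.0 TPM in cGAS-/- libraries. The genotypes did not overlap in either treatment, and Usp18 was the 1 gene of the 9 with its highest WT LPS value in replicate 3, 1.33 times the mean of the other WT LPS libraries. Its rise with LPS was 4.55 in WT (limma adjusted p = 1.58e-06) and 4.54 in cGAS-/- cells (limma adjusted p = 1.31e-06), both with a standard error of 0.26, and the rise in WT was 4.41 without WT LPS replicate 3.

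The enzymes that attach ISG15 followed LPS with smaller changes. Uba7 (the activating enzyme) went from 3.30 ± 0.398 TPM in UT WT to 15.4 ± 5.22 TPM in WT LPS cells (SD, n = 3), and from 2.87 ± 0.0570 to 8.74 ± 0.404 TPM in cGAS-/- cells. Ube2l6 (the conjugating enzyme) went from 14.6 ± 0.590 to 46.9 ± 23.7 TPM in WT and from 10.3 ± 1.55 to 41.4 ± 2.77 TPM in cGAS-/- cells, and Herc6 (the ligase in mice) from 2.29 ± 0.442 to 25.4 ± 8.88 TPM and from 2.17 ± 0.293 to 15.6 ± 0.318 TPM. All 3 rose with LPS in both genotypes, by 1.47 to 2.95 on the log2 scale in WT and by 1.33 to 2.39 in cGAS-/- cells (limma, adjusted p under the threshold in each). Of all genes, 4.31% and 4.76% were called higher. Between genotypes 0 of 3 was called in UT cells or with LPS, where 1.58% and 1% of all genes were called lower. Limma gave an unadjusted p under 0.05 for 0 of them in UT cells and for 2 with LPS (6.04% and 5.33% of all genes with a lower estimate). Without WT LPS replicate 3 the same counts were called, and the rises in WT were 1.67 for Uba7, 1.96 for Ube2l6 and 2.86 for Herc6. In that fit 8.3% of all genes were called higher with LPS in WT, and 4.28% and 4.39% lower between genotypes in UT cells and with LPS.

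Rsad2 encodes viperin, which turns CTP into a chain-terminating nucleotide, and Cmpk2 encodes a mitochondrial kinase that supplies its substrate. Rsad2 was at 4.31, 4.56 and 4.28 TPM in UT WT and at 1.94, 1.78 and 1.42 TPM in UT cGAS-/- libraries, and with LPS at 86.7, 214 and 43.6 TPM in WT and 52.4, 59.4 and 47.1 TPM in cGAS-/- libraries. Cmpk2 was at 2.31, 3.04 and 4.49 TPM in UT WT and at 0.685, 0.568 and 0.801 TPM in UT cGAS-/- libraries, and with LPS at 53.6, 115 and 28.9 TPM in WT and 25.3, 27.4 and 24.6 TPM in cGAS-/- libraries. The neighbours had the same order of WT LPS libraries, with replicate 2 highest and replicate 3 lowest, an order that Ifi44 and Xaf1 also had, and the genotypes did not overlap for Cmpk2 in either treatment and for Rsad2 in UT cells. LPS raised Rsad2 by 4.13 in WT and 4.31 in cGAS-/- cells (limma adjusted p = 8.55e-05 and 6.82e-05) and Cmpk2 by 3.78 and 3.99 (limma adjusted p = 8.71e-05 and 6.52e-05) on the log2 scale, with standard errors of 0.44 for the former and 0.40 for the latter. The rises in WT were 4.67 and 4.25 without WT LPS replicate 3.

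Isg20, a 3'-to-5' exonuclease that degrades single-stranded RNA, had the lowest UT level of the 9 in WT, at 0.569, 0.684 and 0.784 TPM, against 0.275, 0.365 and 0.414 TPM in UT cGAS-/- libraries. With LPS it was at 56.7, 55.4 and 4.10 TPM in WT and at 13.3, 13.9 and 11.2 TPM in cGAS-/- libraries. In WT LPS replicate 3 its value was 0.0731 times the mean of the other WT LPS libraries, the lowest such ratio among the 9 genes. LPS raised it by 3.93 in WT (standard error 0.72, limma adjusted p = 0.00273) and by 3.35 in cGAS-/- cells (standard error 0.72, limma adjusted p = 0.00927). The rise in WT was 5.09 without WT LPS replicate 3 (standard error 0.13, limma adjusted p = 1.72e-08).

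Ifi44, a cytoplasmic protein of the interferon response, was at 0.993, 1.13 and 2.17 TPM in UT WT and at 0.237, 0.297 and 0.345 TPM in UT cGAS-/- libraries. With LPS its level was 44.1, 85.6 and 36.9 TPM in WT and 26.6, 30.8 and 26.5 TPM in cGAS-/- libraries. Every cGAS-/- value lay below every WT value of the same treatment, and the rise with LPS was 4.48 on the log2 scale in each genotype (standard error 0.31, limma adjusted p = 4.71e-06 in WT and 4.54e-06 in cGAS-/- cells), and 4.72 in WT without WT LPS replicate 3. Since its UT values are near or under the pseudocount of 1, this scale compresses its rise, and as a ratio of mean TPM the rise was 38.8 times in WT and 95.4 times in cGAS-/- cells. Its paralog Ifi44l is listed at 0 in the 12 libraries.

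Ifi35, which acts with NMI in the interferon response, stood apart at rest, with 10.5, 10.5 and 10.5 TPM in UT WT and 10.2, 7.52 and 10.6 TPM in UT cGAS-/- libraries, groups that overlapped. With LPS it was at 76.1, 68.0 and 21.5 TPM in WT and at 48.1, 48.0 and 45.0 TPM in cGAS-/- libraries. Its rise was the smallest of the 9 in cGAS-/- cells, at 2.21 on the log2 scale, and 2.10 in WT (standard error 0.40, limma adjusted p = 0.00315 and 0.0033), or 2.67 in WT without WT LPS replicate 3. Vat1, which overlaps it on the opposite strand, lay in the other direction, with 590 ± 11.2 TPM in UT WT against 148 ± 89.3 TPM in WT LPS cells (SD, n = 3).

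Xaf1, a partner of the apoptosis inhibitor XIAP, was at 9.20, 10.3 and 12.7 TPM in UT WT and 5.52, 6.79 and 4.32 TPM in UT cGAS-/- libraries, without overlap. With LPS it was at 105, 115 and 23.1 TPM in WT and at 62.5, 62.2 and 55.6 TPM in cGAS-/- libraries, so that replicate 3 of WT lay below all cGAS-/- libraries and the other WT libraries above them. LPS raised it by 2.52 in WT and by 3.24 in cGAS-/- cells (standard error 0.50, limma adjusted p = 0.00416 and 0.00113). The rise in WT was 3.25, close to that in cGAS-/- cells, without WT LPS replicate 3 (standard error 0.18, limma adjusted p = 8.6e-07).

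Ifi27l2a, a small hydrophobic protein of the ISG12 family, had the highest resting level of the 9, at 589, 661 and 772 TPM in UT WT against 136, 121 and 83.6 TPM in UT cGAS-/- libraries. With LPS it was at 6503, 2189 and 967 TPM in WT and at 705, 720 and 685 TPM in cGAS-/- libraries. The genotypes did not overlap in either treatment, and the mean of LPS-treated cGAS-/- cells, 703 ± 17.2 TPM (SD, n = 3), was close to that of UT WT cells, 674 ± 91.9 TPM. Its rise with LPS was the smallest of the 9 in WT, at 1.84 on the log2 scale (standard error 0.53, limma adjusted p = 0.0252), and 2.65 in cGAS-/- cells (limma adjusted p = 0.00581). In WT it was 2.49 without WT LPS replicate 3 (limma adjusted p = 0.000765), and with any 1 library left out the lowest estimate was 1.12. Ifi27, its overlapping neighbour on the opposite strand, fell with LPS in both genotypes, from 22 ± 3.16 to 1.96 ± 1.57 TPM in WT and from 17.1 ± 2.46 to 4.78 ± 0.492 TPM in cGAS-/- cells (SD, n = 3), and Ifi27l2b was above 0 in 1 library.

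By mean level in UT WT cells the order was Ifi27l2a, Isg15, Xaf1, Ifi35, Rsad2, Usp18, Cmpk2, Ifi44 and Isg20, in which Xaf1 and Ifi35, Rsad2 and Usp18, and Usp18 and Cmpk2 overlapped as neighbours. With LPS in cGAS-/- cells Isg15 (792 ± 35.2 TPM, SD, n = 3) stood first and Ifi27l2a followed, and Isg20 (12.8 ± 1.39 TPM) was last in both. In WT LPS cells the libraries of all neighbours in the order overlapped, apart from Isg15 and the next gene, Rsad2. Since a deposited value appears to be a mean over the transcripts listed for a symbol, a gene with many transcripts can stand lower in this order than its total RNA would place it.

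In the comparison of LPS with UT, all 9 genes were called higher in WT, where 4.31% of all tested genes were called higher, and all 9 in cGAS-/- cells, where 4.76% were (limma, adjusted p under 0.05). With a log2 fold change above 2 as well, as in the methods of the study, 8 were called in WT (1.43% of all genes), all but Ifi27l2a, and 9 in cGAS-/- cells (1.94%). At each of the 9 the 3 LPS libraries lay above the 3 UT libraries, which held for 5.31% of all genes in WT and 15.5% in cGAS-/- cells. The median log2 fold change of the 9 was 3.93 in WT and 3.99 in cGAS-/- cells, while that of all tested genes was −0.46 and −0.20. As a ratio of mean TPM, the level with LPS was between 4.78 (Ifi27l2a) and 57.0 (Isg20) times the UT level in WT, and between 4.98 (Ifi35) and 95.4 (Ifi44) times in cGAS-/- cells. Without WT LPS replicate 3 the range in WT was 6.45 (Ifi27l2a) to 82.5 (Isg20) times, the median log2 fold change of the 9 in WT was 4.41, and all 9 were called higher, where 8.3% of all genes were. With the spread taken from the 6 WT libraries alone, 5 of the 9 were called (1.4% of all genes called higher), and Ifi27l2a lost its WT call in 6 of 24 alternative settings, with adjusted p between 0.000765 and 0.149.

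**Figure D2:**
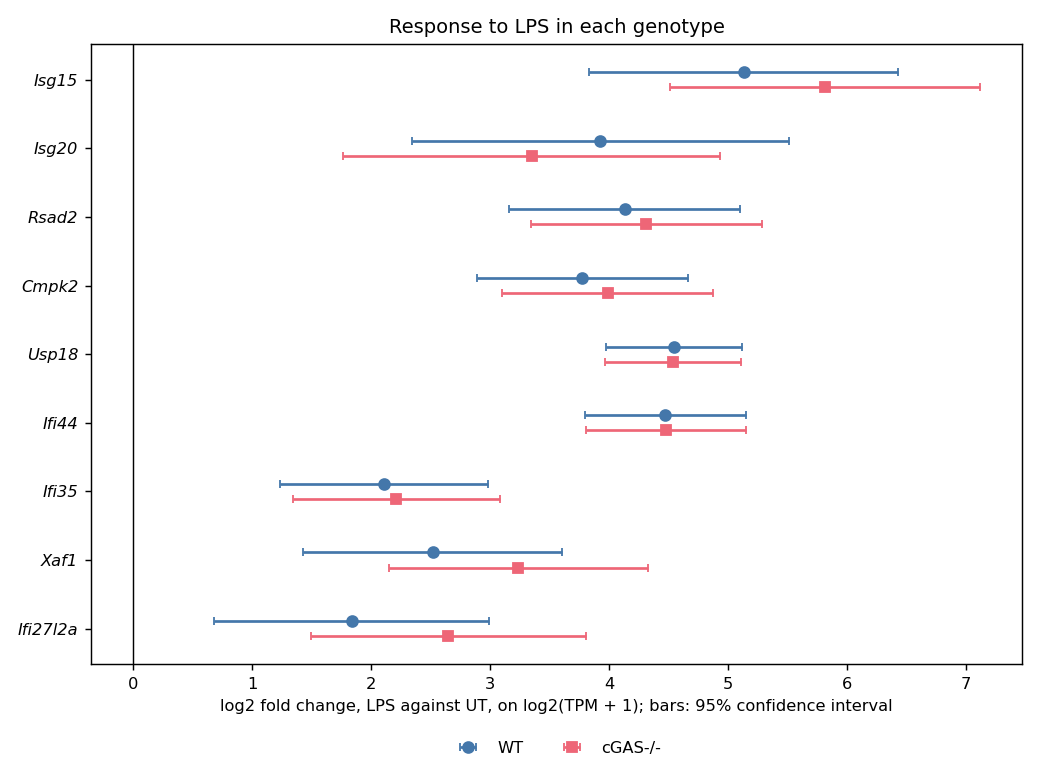
Log2 fold change of LPS against UT for each of the 9 genes, on log2(TPM + 1), in WT (blue circles) and cGAS-/- cells (red squares), with bars for the 95% confidence interval of the limma fit (n = 3 per group). All 18 estimates lie above 0, from 1.84 (Ifi27l2a in WT) to 5.82 (Isg15 in cGAS-/-), and the intervals of the genotypes overlap at every gene.

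At rest, the 9 genes had lower estimates in cGAS-/- than in WT cells, and 1 of them, Ifi27l2a, was called lower, where 1.58% of all tested genes were called lower (limma, adjusted p under 0.05). Its level in UT cGAS-/- cells was 16.9% of the WT mean, or −2.58 on the log2 scale with a standard error of 0.53 (limma, adjusted p = 0.0311, lower in 3 of 3 libraries). In 24 alternative settings the estimate stayed between −2.72 and −2.37, with adjusted p between 9.16e-06 and 0.15, and the call was lost in 12 of them. At 8 of the 9 genes, all but Ifi35, the 3 UT cGAS-/- libraries lay below the 3 UT WT libraries, which held for 18.4% of all tested genes. The UT cGAS-/- mean was 20.5% of the WT mean for Ifi44, 20.9% for Cmpk2, 35.9% for Usp18, 39.1% for Rsad2, 40.3% for Isg15, 51.6% for Xaf1, 51.7% for Isg20 and 90.4% for Ifi35. The median log2 fold change of the 9 was −0.98 against −0.04 for all tested genes.

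How many of the resting differences were called changed with the libraries in the fit, its weights, the filter and the scaling, from 0 to 7 of the 9. The count was 0 when low values were not filtered, with a common total, and with any 1 library of UT WT, UT cGAS-/- or cGAS-/- LPS cells left out. With the 6 UT libraries alone, 7 of the 9 were called lower (7.07% of all genes), and with a weight for each library 7 were also called (8.03% of all genes), in both cases all but Isg20 and Ifi35. Without WT LPS replicate 3, which takes no direct part in this comparison, 5 were called lower (4.28% of all genes), and without WT LPS replicate 2 there were 3 (2.41% of all genes). Unadjusted, 5 had a p under 0.05 in the main fit, against 6.04% of all genes with a lower estimate. The log2 fold change was −1.32 for Cmpk2 (95% confidence interval −2.20 to −0.43), −1.26 for Isg15 (−2.56 to 0.04), −0.99 for Rsad2 (−1.96 to −0.02), −0.98 for Usp18 (−1.55 to −0.41), −0.88 for Ifi44 (−1.55 to −0.21), −0.85 for Xaf1 (−1.94 to 0.24), −0.31 for Isg20 (−1.90 to 1.27) and −0.15 for Ifi35 (−1.02 to 0.73).

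Summed levels of cell type markers differed between genotypes. The summed level of 6 B cell markers, all of them listed, was between 109 and 135 TPM in UT WT and between 19.98 and 28.8 TPM in UT cGAS-/- libraries, and between 28.3 and 44.3 TPM in WT LPS and 3.14 and 8.87 TPM in cGAS-/- LPS libraries. That of 7 neutrophil markers was between 138 and 212 TPM and between 53.1 and 126 TPM in the UT groups, and between 35.6 and 353 TPM in WT LPS and 46.4 and 60.1 TPM in cGAS-/- LPS libraries, which overlapped. Of 4 tested B cell markers, 1 was called lower in UT cGAS-/- cells, with estimates from −3.52 (Igkc) to −0.23 (Cd79b). Of 5 tested neutrophil markers, 2 were called lower there, with estimates from −3.34 (Ngp) to −0.60 (S100a8), against 1.58% of all genes. With LPS 1 and 0 were called lower (1% of all genes), or 3 and 1 without WT LPS replicate 3 (4.39%). The summed level of the macrophage markers, most of it Lyz2 (16429 ± 394 TPM in UT WT, SD, n = 3), was between 17298 and 18059 TPM in UT WT and 20579 and 22447 TPM in UT cGAS-/- libraries, and between 16919 and 26824 TPM in WT LPS and 33794 and 34259 TPM in cGAS-/- LPS libraries. Taken singly, 1 of the 7 was called between genotypes in UT cells, Mrc1, lower in cGAS-/- cells (−1.68, limma adjusted p = 0.0121), and with LPS Lyz2 was called higher (0.80, limma adjusted p = 0.0366) and Mrc1 lower (−1.99, limma adjusted p = 0.00582), while 1 was called higher and 3 lower with LPS without WT LPS replicate 3. Their part in the genotype differences was not tested, and in bulk RNA fewer cells of a type and less RNA per cell cannot be told apart.

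With LPS, 0 of the 9 genes was called between genotypes, where 1% of all tested genes were called lower in cGAS-/- cells (limma, adjusted p under 0.05), and 4 had an unadjusted p under 0.05 (5.33% of all genes with a lower estimate). The cGAS-/- libraries lay below all WT libraries at Cmpk2, Usp18, Ifi44 and Ifi27l2a, 4 of the 9, and this held for 5.17% of all genes. All 9 estimates were below 0, with a median of −0.87 against 0.20 for all tested genes, though Ifi35 turned to 0.086 with a common total and, without WT LPS replicate 1, Isg15, Ifi35 and Xaf1 turned to 0.07, 0.29 and 0.21. The estimates nearest to the threshold were those of Usp18, −0.99 (95% confidence interval −1.56 to −0.42, limma adjusted p = 0.0849), Ifi27l2a, −1.77 (−2.92 to −0.61, adjusted p = 0.123), Ifi44, −0.87 (−1.55 to −0.20, adjusted p = 0.177) and Cmpk2, −1.10 (−1.99 to −0.21, adjusted p = 0.193). The intervals of the other 5 held 0, from −0.89 (−2.47 to 0.69) for Isg20 and −0.81 (−1.78 to 0.16) for Rsad2 to −0.57 (−1.87 to 0.73) for Isg15, −0.13 (−1.22 to 0.96) for Xaf1 and −0.04 (−0.91 to 0.84) for Ifi35.

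This comparison turned on WT LPS replicate 3. Without that library all 9 genes were called lower in cGAS-/- than in WT cells with LPS, where 4.39% of all genes were called lower, and the 3 cGAS-/- libraries lay below both remaining WT libraries at all 9, as for 15.9% of all genes. The log2 fold change was then −2.42 for Ifi27l2a (95% confidence interval −3.27 to −1.58, limma adjusted p = 0.00394), −2.05 for Isg20 (−2.33 to −1.77, adjusted p = 1.17e-05), −1.57 for Cmpk2, −1.46 for Isg15, −1.35 for Rsad2, −1.11 for Ifi44, −0.86 for Xaf1, −0.85 for Usp18 and −0.60 for Ifi35. The mean of cGAS-/- LPS cells was between 16.2% (Ifi27l2a) and 65.3% (Ifi35) of the WT mean without replicate 3, with a median over the 9 of 35.3%, and between 21.9% and 85.3%, with a median of 48.8%, with it. In UT cells the corresponding median was 39.1%. TMM factors, which rescale each library to the bulk of its genes, gave 4 calls from all 12 libraries (1.91% of all genes lower), and leaving out WT LPS replicate 1 or replicate 2 gave 1 call each, that of Usp18 (1.65% and 3.96% of all genes lower).

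**Figure D3:**
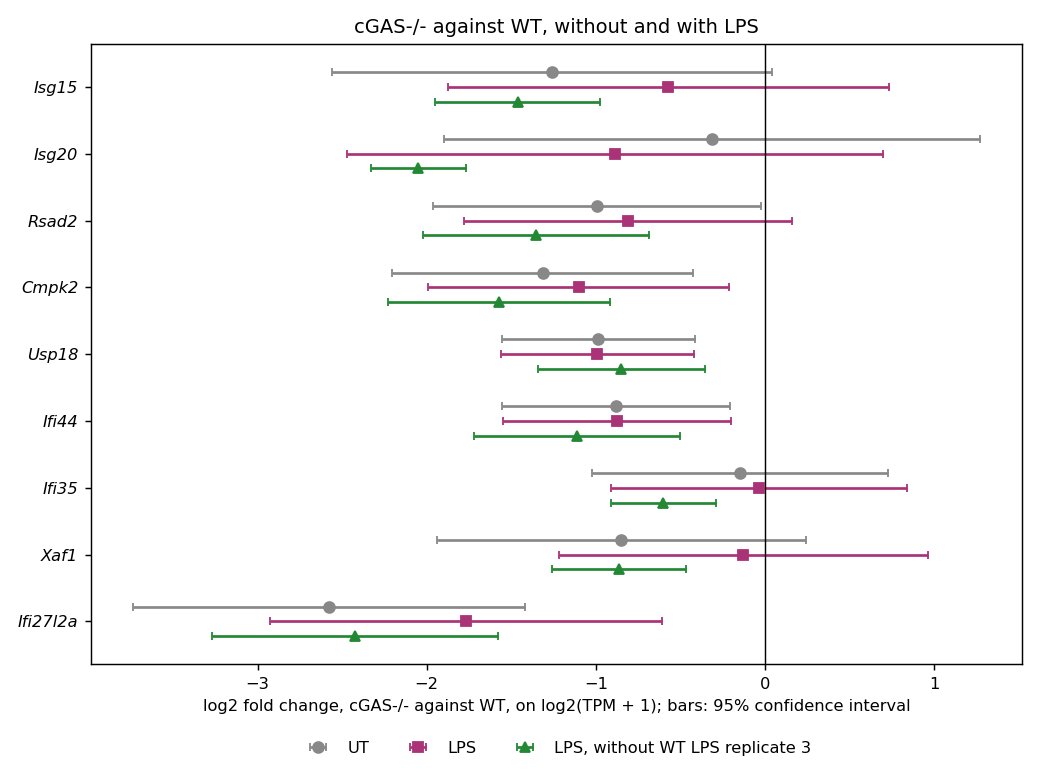
Log2 fold change of cGAS-/- against WT for each of the 9 genes, on log2(TPM + 1), in UT cells (grey circles), with LPS (purple squares) and with LPS after WT LPS replicate 3 was left out (green triangles), with bars for the 95% confidence interval of the limma fit. All 27 estimates lie below 0, and the intervals with LPS exclude 0 for 4 genes from all libraries and for 9 without that replicate.

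Whether the rise with LPS differed between genotypes was tested by the interaction term. It was called for 0 of the 9 genes by limma, where 0.9% of all genes were called in either direction, and 0 had an unadjusted p under 0.05. The difference of the rises (cGAS-/- minus WT) was −0.01 for Usp18 (95% confidence interval −0.81 to 0.80), 0.01 for Ifi44 (−0.95 to 0.96), 0.11 for Ifi35 (−1.13 to 1.35), 0.18 for Rsad2 (−1.19 to 1.55), 0.21 for Cmpk2 (−1.04 to 1.47), 0.69 for Isg15 (−1.15 to 2.53), 0.72 for Xaf1 (−0.82 to 2.26), 0.81 for Ifi27l2a (−0.82 to 2.45) and −0.58 for Isg20 (−2.82 to 1.66). These intervals leave room for a difference of 0.80 or more on the log2 scale at every gene. With a pseudocount of 0.1 in place of 1 the interaction was 1.00 for Ifi44 and 0.94 for Cmpk2, and the median of the 9 went from 0.18 to 0.74, with a lowest limma adjusted p of 0.601 among the 9, at Ifi44. Without WT LPS replicate 3 the interaction of Isg20 was −1.74 (−2.11 to −1.36, limma adjusted p = 0.000532 against 0.816 with all libraries, 1.62% of all genes called lower), a smaller rise in cGAS-/- cells, and those of the other 8 were not called, from −0.46 (Ifi35) to 0.16 (Ifi27l2a).

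WT LPS replicates 1 and 2 also differed from each other by gene length. Replicate 1 exceeded replicate 2 by 1.57 on the log2 scale for Ifi27l2a (canonical transcript of 474 bases) and by 0.78 for Isg15 (782 bases), the shortest of the 9, and lay below it by −0.96 for Ifi44 (2938 bases), −1.10 for Cmpk2 (3200 bases) and −1.30 for Rsad2 (3782 bases), the longest. Ifi35, Isg20, Usp18 and Xaf1, of intermediate length, lay at 0.16, 0.03, −0.50 and −0.13. The same order held over protein-coding genes with a mean of at least 5 TPM in WT LPS cells, whose median ratio of replicate 1 to replicate 2 was 0.59 under 1000 bases (246 genes), −0.11 from 1000 to 2000 bases (698 genes), −0.60 from 2000 to 4000 bases (1167 genes) and −0.88 beyond (777 genes). In cGAS-/- LPS libraries these medians lay between −0.02 and 0.01. The median ratio of WT LPS replicate 3 to replicate 2 varied less with length, from −1.83 under 1000 bases to −1.60 beyond 4000 bases. The part that length plays in the WT spread of the 9 genes was not tested. In WT LPS replicate 3 the other 8 genes were at 0.0731 to 0.57 times the mean of replicates 1 and 2 while Usp18 was at 1.33 times.

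**Figure D4:**
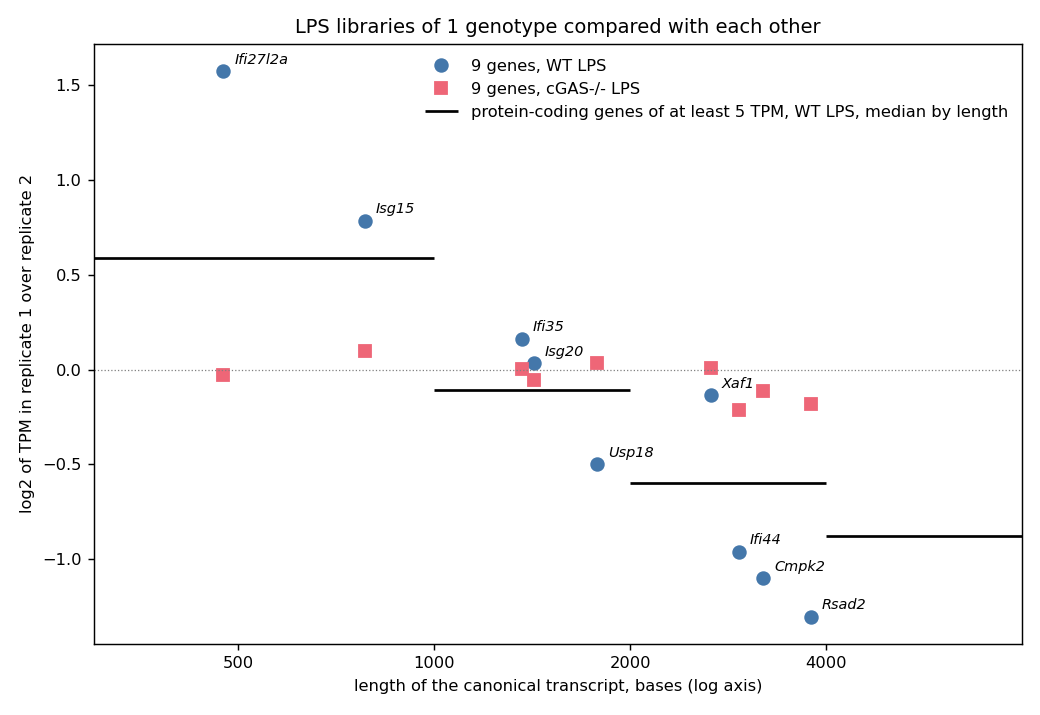
Log2 ratio of TPM in replicate 1 over replicate 2 against the length of the canonical transcript in bases (log axis) for the 9 genes in WT LPS (blue circles) and cGAS-/- LPS cells (red squares), with black lines for the median of protein-coding genes of a length class with a mean of at least 5 TPM in WT LPS cells. The WT ratio runs from 1.57 at the shortest gene to −1.30 at the longest, while the cGAS-/- ratios stay between −0.21 and 0.10.

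Of the interferon pathway that links a sensor to the 9 genes, 11 of the 16 genes chosen are listed in the table and all 11 were tested, and 6 were called higher with LPS in each genotype (4.31% of all genes in WT and 4.76% in cGAS-/- cells), among them the ligand Ifnb1, the factors Stat2, Irf7 and Irf1, and the kinase Ikbke. Ifnb1 was the 1 of them called between genotypes with LPS, where 1% of all genes were called lower. It was at 8.43, 7.21 and 9.60 TPM in WT LPS and at 3.42, 3.24 and 2.58 TPM in cGAS-/- LPS libraries, so that WT LPS replicate 3 was the highest, as for Usp18 alone among the 9 genes. The difference was −1.20 on the log2 scale with a standard error of 0.18 (limma, adjusted p = 0.00597), or −1.12 without WT LPS replicate 3, and in UT cells it was above 0 in 1 library, of WT. Irf7, the factor that amplifies the response, was at 3.62 ± 0.893 TPM in UT WT and 1.11 ± 0.240 TPM in UT cGAS-/- cells (SD, n = 3), and with LPS at 118 ± 70.0 and 88.9 ± 2.48 TPM, with neither difference of genotypes called. Without WT LPS replicate 3 both were called, at −1.12 in UT cells (limma adjusted p = 0.00366) and −0.79 with LPS (limma adjusted p = 0.0299), and the mean of WT LPS cells was 156 TPM. In that fit 4.28% of all genes were called lower in UT cells and 4.39% with LPS. The estimates of Jak1, Tyk2, Irf3, Tbk1 and Tlr4 were between −1.12 and −0.34 for LPS in WT and between −0.88 and 0.04 in cGAS-/- cells, none of them called, though Tlr4 was called lower with LPS in cGAS-/- cells without WT LPS replicate 3 (−0.88, limma adjusted p = 0.00266). In that fit Tlr4 was also called lower in cGAS-/- than in WT cells with LPS (−0.73, limma adjusted p = 0.0393, against an estimate of 0.0468 with all libraries), Ikbke in UT cells (−1.001, limma adjusted p = 0.00804), and the rise of Ifnb1 was called smaller in cGAS-/- cells (interaction −0.99, limma adjusted p = 0.0324, against −1.08 and 0.0873 with all libraries). Of all genes, 1.62% had an interaction called lower in the same fit.

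Of 45 other interferon-stimulated genes chosen, 32 are listed in the table and all 32 were tested. With LPS 27 of them were called higher in WT and 30 in cGAS-/- cells (4.31% and 4.76% of all genes), with Gbp2 (4.36 and 4.98 on the log2 scale) and Zbp1 (4.21 and 5.43) the largest rises in both. Their median was 2.03 in WT and 2.44 in cGAS-/- cells, below those of the 9 genes. In UT cells 1 was called lower in cGAS-/- cells (1.58% of all genes), Ifi47 (−1.03, limma adjusted p = 0.0344), and the cGAS-/- libraries lay below the WT libraries at 26 of 32 (18.4% of all genes). With LPS 1 was called lower (1% of all genes), Igtp (−1.40, limma adjusted p = 0.0436), with the libraries of 6 of 32 below (5.17% of all genes). Without WT LPS replicate 3, 11 were called lower with LPS (4.39% of all genes), 8 lower in UT cells (4.28%) and 31 higher with LPS in WT (8.3%), the last with a median of 2.37. Of 13 tested LPS-responsive genes, 13 were called higher with LPS in each genotype, among them Cxcl10, by 5.97 in WT and 5.13 in cGAS-/- cells, Il1b, by 4.33 and 7.22, and Il6, by 0.71 and 3.85, the rises in WT being 6.13, 4.86 and 0.81 without WT LPS replicate 3. Since these genes were chosen for that response, the count is only a check of the treatment. Between genotypes with LPS 5 of them were called, 4 higher and 1 lower in cGAS-/- cells (2.36% of all genes in either direction). The interaction was called for 2 of them, both higher (0.9% of all genes in either direction).

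Over the 12 libraries, the gene outside the 9 whose log2(TPM + 1) followed each of them most closely was Oas1a for Isg15 (Pearson r = 0.995), Oasl1 for Rsad2 (0.996), Dhx58 for Ifi44 (0.994), Slfn1 for Usp18 (0.994), Gm5150 for Xaf1 (0.997), Fcgr1 for Isg20 (0.992), Fcgr4 for Cmpk2 (0.991), Nupr1 for Ifi35 (0.987) and Ifitm6 for Ifi27l2a (0.934). These are descriptions over libraries that share treatments and genotypes, so that a rise with LPS alone gives a high value. Oas1a, Oasl1 and Dhx58 are themselves interferon-stimulated genes, and Fcgr1 and Fcgr4 encode receptors for IgG. The lowest of the 9 correlations belonged to Ifi27l2a, the gene with the highest resting level in WT and the largest difference between genotypes at rest.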

How the data were processed

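Total RNA of 12 BMDM libraries, 3 per genotype and treatment, was sequenced from stranded mRNA libraries. Per the labels and the methods, the authors used fastp, STAR and kallisto on GRCm39, and edgeR and limma for their own comparisons. The deposited values appear to be TPM, averaged for each symbol over its transcripts, a unit inferred from the values, and library totals differ. The filter kept 11887 genes with at least 1 TPM in at least 3 libraries, with each library rescaled to a total of 1000000 for this step. Since all deposited totals were lower, the cutoff on the deposited values lay under 1 TPM. Log2(TPM + 1) was fitted with limma 3.58.1 (R 4.3.3), with a mean per condition over all 12 libraries and a variance trend, Benjamini-Hochberg adjusted over all tested genes, with calls at 0.05. The 9 genes, the other lists, the motifs and the rules for named genes (all 9, their pathway, neighbours, the most alike gene and the largest called changes of other interferon-stimulated genes) were chosen with earlier results of these data known. Named alternatives were pseudocounts of 0.1 and 5, filters, TMM factors, other scalings, weights, a replicate block and each library left out. Promoter windows and transcript lengths came from GENCODE on GRCm39, and similar transcripts from blastn 2.17.0. No test used counts, since the values are TPM. A listed gene of the interferon pathway is counted but not reported by name here.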

Additional observations from a re-analysis of the deposited data

How the results depend on the processing

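Of 24 alternative settings, 23 were planned and 1, a common protein-coding total, was chosen after seeing the data. The rise with LPS kept its direction for all 9 genes in all of them, and 9 of 216 calls in WT and 1 of 216 in cGAS-/- cells were lost. The genes called with LPS in WT were 5 with the groups compared alone, 8 with no filter, 8 with a common total, and 8 to 9 with each library left out. Of all genes 6.02%, 11.3%, 32.6%, and 16.2% to 49.6% were called in these settings in either direction, against 27.6% in the main one. In UT cells the count between genotypes was 0 with no filter and with a common total, 2 with TMM factors, 7 with the groups compared alone, 7 with weights, and 0 to 5 with a library left out, while all estimates stayed below 0; of all genes 0.996%, 1.99%, 1.83%, 10.4% and 11.5% were called in these 5 settings in either direction, and 1.83% in the main one. With LPS it was 1 with a pseudocount of 5, 4 with TMM factors, 2 with quantile normalization, 2 with weights, 1 with the protein-coding total (2.85%, 4.14%, 4.64%, 2.49% and 2.33% of all genes, against 2.36%), and 0 to 9 with a library left out, where Isg15 turned to 0.0704, Ifi35 to between 0.21 and 0.29 and Xaf1 to between 0.21 and 0.27 on the log2 scale, each without WT LPS replicate 1 or 2 (Ifi35 also to 0.0859 with a common total). The interaction count was 0 to 1. Interaction estimates changed sign for Usp18 (0.43 with a pseudocount of 0.1, 0.20 with a common total, 0.24 with weights), for Rsad2, Cmpk2 and Ifi44 (−0.30, −0.48 and −0.52 with a pseudocount of 5), for Rsad2, Cmpk2, Ifi44 and Ifi35 (−0.25, −0.25, −0.45 and −0.29 with TMM factors, −0.0506, −0.0663, −0.29 and −0.10 with quantile normalization), for Isg15, Rsad2, Ifi44, Ifi35 and Ifi27l2a (−0.20, −0.0434, −0.0093, −0.34 and −0.0336 with weights) and for Rsad2, Ifi44 and Ifi35 (−0.0379, −0.18 and −0.13 with the protein-coding total). With a library left out the interaction ranged from −0.20 to 1.33 for Isg15, −1.74 to 0.0125 for Isg20, −0.36 to 0.77 for Rsad2, −0.26 to 0.72 for Cmpk2, −0.20 to 0.16 for Usp18, −0.23 to 0.36 for Ifi44, −0.46 to 0.43 for Ifi35, −0.0136 to 1.12 for Xaf1 and 0.16 to 1.53 for Ifi27l2a. The genotype difference with LPS then ranged from −1.46 to 0.0704 for Isg15, −2.05 to −0.30 for Isg20, −1.35 to −0.22 for Rsad2, −1.57 to −0.60 for Cmpk2, −1.11 to −0.52 for Ifi44, −0.60 to 0.29 for Ifi35, −0.86 to 0.27 for Xaf1 and −2.42 to −1.05 for Ifi27l2a. The cause of these changes was not tested.

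Between UT and LPS libraries of a genotype, deviations of libraries with the same number correlated between −0.0315 and 0.0383 across genes. Those with different numbers correlated between −0.0643 and 0.0365. With 3 libraries per group this cannot exclude a shared preparation, and libraries of different genotypes were not compared. The fit with a replicate block gave 9, 9, 1, 0 and 0 calls for the LPS effect in WT and in cGAS-/- cells, the genotypes in UT cells and with LPS, and the interaction, the same counts as without it. Of all genes it called 24.9%, 11.9%, 1.43%, 1.51% and 0.454%, against 27.6%, 13.8%, 1.83%, 2.36% and 0.9% without it. The depth in reads is unknown, which limits what can be said of Isg20, Ifi44 and Cmpk2 in UT cGAS-/- cells, whose values were under 1 TPM.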
